A study of Mus musculus with 2 samples.

Results

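The 7 Ms4a membrane protein genes described here are *Ms4a4a*, *Ms4a4b*, *Ms4a4c*, *Ms4a6b*, *Ms4a6c*, *Ms4a6d* and *Ms4a7*, taken by their symbols from the 27998 genes listed in both count matrices. They are 7 of the 19 genes there whose symbol starts with Ms4a. The study sorted MerTk+ CD64+ tumor mononuclear phagocytes (TMPs) from B16 melanoma, a transplanted mouse tumor line, and made 1 droplet-based single-cell RNA library from Fcmr+/+ mice and 1 from Fcmr-/- mice, all on the C57Bl/6 strain. *Fcmr* encodes a receptor for IgM, and the comparison of the libraries addresses how its loss changes phagocyte states inside the tumor. The Fcmr-/- mice lack the gene in every cell type, not in phagocytes alone, and the methods state that littermates matched by age, sex and cage served as controls. The ages of the mice and the number pooled in each library are not given in the sources used here, so each library was taken as 1 sample, no test between genotypes was possible, and genotype cannot be told apart from any other difference between the libraries.

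MS4A proteins cross the membrane several times and sit mostly at the cell surface or in endosomes, where several associate with Fc receptors, lectins and other signaling receptors. The best-known members are CD20, encoded by *Ms4a1* in B cells, and the beta chain of the high-affinity IgE receptor, encoded by *Ms4a2* in mast cells. *Ms4a4a*, *Ms4a6b*, *Ms4a6c*, *Ms4a6d* and *Ms4a7* are known from macrophages and other myeloid cells, *Ms4a4b* was characterised in T cells as a modulator of activation, and *Ms4a4c* is widely used as a member of interferon-response signatures in mouse myeloid cells.

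All 7 genes lie in a stretch of 284 kb on chromosome 19 of GRCm38, from 11321039 to 11604849, which holds 9 protein-coding genes in the GENCODE annotation. The other two are *Gm8369* and *Ms4a4d*. *Ms4a7* (ENSMUSG00000024672) occupies 11321039 to 11336146 and *Ms4a6d* (ENSMUSG00000024679) 11586604 to 11604849, both on the minus strand. On the plus strand lie *Ms4a4a* (ENSMUSG00000101389, 11375523 to 11392790), *Ms4a4c* (ENSMUSG00000024675, 11404770 to 11427246) and *Ms4a4b* (ENSMUSG00000056290, 11443553 to 11467055). They are followed there by *Ms4a6c* (ENSMUSG00000079419, 11469366 to 11482192) and *Ms4a6b* (ENSMUSG00000024677, 11516512 to 11531256). An exon on the opposite strand overlaps *Ms4a4c* (*Gm5692*), *Ms4a6b* (*Gm19261*) and *Ms4a6c* (*BE692007*).

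Promoters of the pairs *Ms4a4b* and *Ms4a4c*, and *Ms4a6b* and *Ms4a6c*, are shown because these pairs had the most alike levels over the phagocyte clusters described further on. The gene *Gm8369* lies between *Ms4a6c* and *Ms4a6b*. Each sequence runs from 250 bases before to 50 bases after the RefSeq start, on the plus strand of GRCm38.p6. Capitals mark runs of at least 12 bases that the promoter shares with its partner. Runs that abut print as 1 stretch, as in *Ms4a4b*, where *Ms4a4c* has a further base between them.
Ms4a4b, chr19:11443308-11443607: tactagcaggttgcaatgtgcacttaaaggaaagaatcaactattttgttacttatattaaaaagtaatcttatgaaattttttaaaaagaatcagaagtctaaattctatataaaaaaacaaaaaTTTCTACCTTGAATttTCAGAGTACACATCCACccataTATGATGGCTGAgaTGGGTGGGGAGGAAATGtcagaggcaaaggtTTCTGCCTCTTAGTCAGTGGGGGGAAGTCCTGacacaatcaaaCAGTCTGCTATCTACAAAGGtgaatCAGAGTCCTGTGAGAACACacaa
Ms4a4c, chr19:11407411-11407710: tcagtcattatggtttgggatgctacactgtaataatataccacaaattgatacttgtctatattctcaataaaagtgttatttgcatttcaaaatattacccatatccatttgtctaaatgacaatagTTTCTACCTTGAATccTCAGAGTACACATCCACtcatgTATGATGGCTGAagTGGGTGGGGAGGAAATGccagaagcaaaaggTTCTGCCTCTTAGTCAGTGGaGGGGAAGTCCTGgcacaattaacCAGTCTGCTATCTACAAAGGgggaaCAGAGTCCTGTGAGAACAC
Ms4a6b, chr19:11518309-11518608: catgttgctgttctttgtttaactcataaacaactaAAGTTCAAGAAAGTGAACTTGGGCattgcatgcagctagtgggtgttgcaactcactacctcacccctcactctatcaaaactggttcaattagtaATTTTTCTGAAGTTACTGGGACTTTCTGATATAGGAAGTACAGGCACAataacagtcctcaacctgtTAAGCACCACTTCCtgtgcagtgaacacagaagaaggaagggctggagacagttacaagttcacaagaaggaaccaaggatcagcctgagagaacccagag
Ms4a6c, chr19:11469118-11469417: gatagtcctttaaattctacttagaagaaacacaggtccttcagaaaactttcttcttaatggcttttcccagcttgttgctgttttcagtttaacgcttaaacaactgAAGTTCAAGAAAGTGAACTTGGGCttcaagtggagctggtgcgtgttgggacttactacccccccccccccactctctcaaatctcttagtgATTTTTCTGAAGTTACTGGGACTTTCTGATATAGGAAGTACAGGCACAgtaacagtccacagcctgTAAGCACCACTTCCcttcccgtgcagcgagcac
Such runs covered 131 bases of both *Ms4a4b* and *Ms4a4c*, with a longest run of 20 bases, and 86 bases of both *Ms4a6b* and *Ms4a6c*, with a longest run of 48 bases. In the other 13 pairs among the 6 members with a RefSeq promoter, the longest shared run was 9 bases. Aligned over whole windows, *Ms4a4b* and *Ms4a4c* were 73.8% identical and *Ms4a6b* and *Ms4a6c* 52.3%. The other 13 pairs had 48.3% to 53.6%, so by this measure *Ms4a6b* and *Ms4a6c* did not stand apart. *Ms4a4a* and *Ms4a7* were the other members with an entry, and *Ms4a6d* had none. On either strand, none of the 6 promoters held an interferon-stimulated response element (GAAA, any 2 bases, then GAAA), TTCNNNGAA (a STAT site) or GAGGAAGT (a PU.1 site), which 3.44%, 8.30% and 3.20% of 32851 mouse promoters hold. That says only that these letters are not in these windows. *Ms4a7* had 2 listed promoters, of which the first was searched. The windows of *Ms4a4c* and *Ms4a6b* lie inside the gene spans given above, past the GENCODE starts.

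After the study's limits on cells, 6352 of 6392 Fcmr+/+ and 7999 of 8017 Fcmr-/- cells were kept, with 128408544 and 124630621 unique molecular identifiers (UMIs). The median depth was 17974 UMIs per Fcmr+/+ cell and 12911 per Fcmr-/- cell, and 73 kept barcodes occurred in both libraries. *Fcmr* had 7 and 6 UMIs, too few to check the genotypes. The genes of the sort were present, with 62.8 and 48.7 CPM of *Mertk* and 250.4 and 394 CPM of *Fcgr1*, which encodes CD64, in Fcmr+/+ and Fcmr-/- cells. Levels are summed UMIs scaled to 1000000 per library (CPM), in which a captured 3' end counts once whatever the length of its transcript. Log2 ratios compare Fcmr-/- with Fcmr+/+ cells after adding 1 CPM. Each interval given is an exact 95% interval, Poisson for a sum of UMIs and Clopper-Pearson for a percentage of cells, and reflects nothing but counting error.

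*Ms4a4c* was the member that differed most between the libraries. It had 8927 UMIs in Fcmr+/+ cells, 69.5 CPM (interval 68.1 to 71.0), and 19908 in Fcmr-/- cells, 159.7 CPM (interval 158 to 162). The Fcmr-/- level was 2.30-fold higher (interval 2.24 to 2.36), a log2 ratio of 1.19, the place of rank 49 among 8701 genes with at least 5 CPM in either library. It was the 1 member of 7 at least 2-fold higher in Fcmr-/- cells, and 0 of 7 were at least 2-fold lower. Over all 8701 genes, 0.793% were at least 2-fold higher and 0.287% at least 2-fold lower. At a limit of 1.5-fold, 2 members were higher, *Ms4a4b* and *Ms4a4c*, where 2.4% of all genes were. The median log2 ratio was 0.14 over the members and 0.00 over all genes.

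The second gene of this pair, *Ms4a4b*, had 470 UMIs in Fcmr+/+ cells, 3.66 CPM (interval 3.34 to 4.01), and 864 in Fcmr-/- cells, 6.93 CPM (interval 6.48 to 7.41). Its level was 1.89-fold higher in Fcmr-/- cells (interval 1.69 to 2.12). *Ms4a4a*, whose human counterpart marks alternatively activated macrophages, had 699 and 521 UMIs, or 5.44 CPM (interval 5.05 to 5.86) and 4.18 CPM (interval 3.83 to 4.56). It was 1.30-fold higher in Fcmr+/+ cells (interval 1.16 to 1.46). *Ms4a4b* reached 5 CPM only in Fcmr-/- cells and *Ms4a4a* only in Fcmr+/+ cells, each in the library where it was higher.

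The Ms4a6 genes differed little between the libraries. For *Ms4a6b*, 25793 Fcmr+/+ UMIs gave 201 CPM (interval 198 to 203) and 27108 Fcmr-/- UMIs gave 218 CPM (interval 215 to 220.1). *Ms4a6c* reached 494 CPM in Fcmr+/+ (interval 490.0 to 498) against 543 CPM in Fcmr-/- TMPs (interval 538 to 547). These were 1.08-fold (interval 1.06 to 1.10) and 1.10-fold (interval 1.09 to 1.11) higher levels in Fcmr-/- cells. For *Ms4a6d* the Fcmr+/+ level was 525 CPM (interval 521 to 529) and the Fcmr-/- level 475 CPM (interval 471 to 478), 1.11-fold higher in Fcmr+/+ cells (interval 1.09 to 1.12). *Ms4a7*, a marker of tissue and tumor macrophages, stood at an Fcmr+/+ level of 550.2 CPM (interval 546 to 554) and an Fcmr-/- level of 624 CPM (interval 619.6 to 628), which was 1.13-fold higher (interval 1.12 to 1.15). The counting intervals of the libraries did not overlap for these 4 genes, nor for the other members. How many of all genes share this was not counted, so it is not shown to be particular to the members. Across cells thinned to equal depth, as described below, the variance of these 4 genes was 2.04 to 4.66 times their mean. For *Ms4a4c* it was 5.37 times the mean in Fcmr+/+ and 5.69 times in Fcmr-/- cells. Poisson counts would have equal variance and mean, so the intervals are narrower than the spread over cells implies. The spread between mice is unknown, and neither these small differences nor that of *Ms4a4c* can be set against it.

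**Figure D1:**
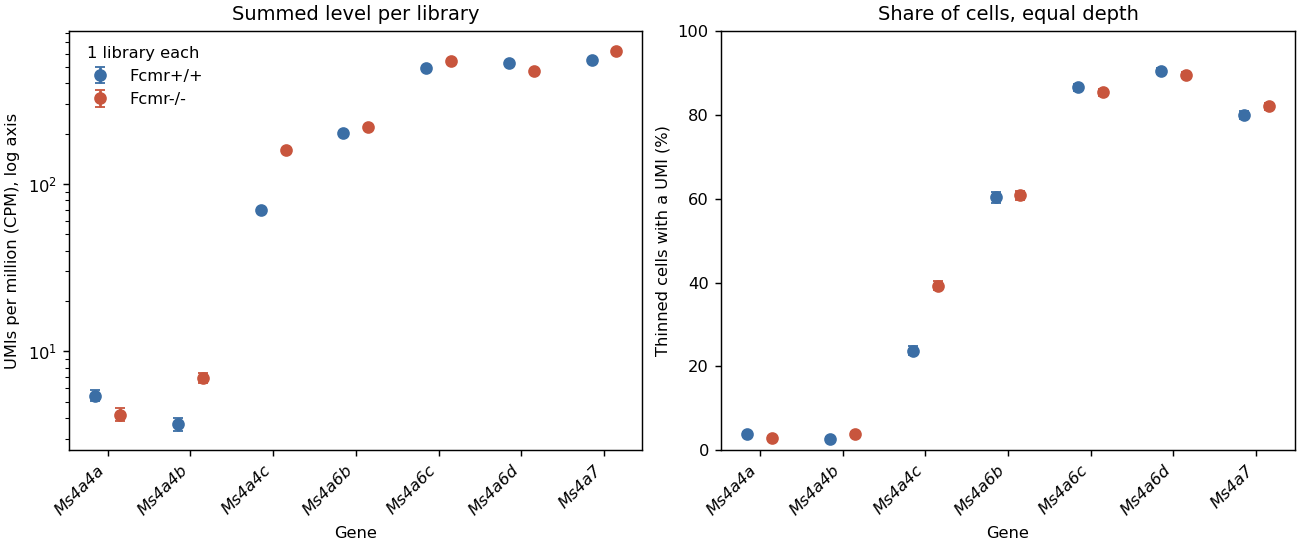
Level of each Ms4a gene in the Fcmr+/+ and Fcmr-/- libraries, in CPM on a log axis (left), and share of cells with a UMI after every cell was thinned to 6403 UMIs (right). Points are 1 library each and bars are exact 95% counting intervals. *Ms4a4c* stands at 69.5 and 159.7 CPM and at 23.8% and 39.3% of cells, while the points of *Ms4a6b*, *Ms4a6c*, *Ms4a6d* and *Ms4a7* lie close together.

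Because Fcmr+/+ cells were deeper, shares of cells were compared after each cell was thinned to 6403 UMIs, which left 6280 Fcmr+/+ and 7354 Fcmr-/- cells and left out 72 and 645 shallower ones. The share with *Ms4a4c* was then 23.8% in Fcmr+/+ (interval 22.7 to 24.8) and 39.3% in Fcmr-/- TMPs (interval 38.2 to 40.4), and it was 38.3% and 53.9% before thinning. *Ms4a6b* was found in 60.3% and 60.8% of thinned cells, where the unthinned shares were 80.8% and 74.5%. For the remaining members the thinned shares in Fcmr+/+ and Fcmr-/- cells were 3.77% and 2.99% for *Ms4a4a*, 2.63% and 3.96% for *Ms4a4b*, 86.6% and 85.5% for *Ms4a6c*, 90.5% and 89.5% for *Ms4a6d*, and 80.1% and 82.0% for *Ms4a7*. Unthinned, these shares were 10.0% and 6.16%, 6.19% and 7.33%, 94.8% and 91.3%, 97.3% and 95.5%, and 88.9% and 88.6%. The share of cells that free RNA alone would give was not measured.

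*Ms4a4c* was spread unevenly over cells. The 10% of cells with the most of its UMIs held 66.2% of them in the Fcmr+/+ library and 53.7% in the Fcmr-/- library, against 26.9% and 27.1% for *Ms4a6d*. At equal depth, at least 10 UMIs of *Ms4a4c* were found in 0.812% of Fcmr+/+ and 2.26% of Fcmr-/- cells, and among cells with any, the mean was 2.58 and 3.07 UMIs. Cells of low depth had higher levels of it. In the shallowest of 4 depth groups of cells it had 232 CPM in Fcmr+/+ and 330.0 in Fcmr-/- cells, and in the deepest 40.6 and 107, with the Fcmr-/- level above the Fcmr+/+ level in each of the 4. On thinned cells the log2 ratio was 0.96, just under 2-fold, with 96.0 CPM in Fcmr+/+ and 188 in Fcmr-/- cells. Thinning also left out cells unevenly. It kept 249 of 253 Fcmr+/+ but 521 of 640 Fcmr-/- cells of cluster 9, described below, where *Ms4a4c* was highest. As a mean over all kept cells of each cell's own CPM, the log2 ratio was 1.06.

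A thinned cell held UMIs of a median of 4 members in both libraries. *Ms4a6b*, *Ms4a6c*, *Ms4a6d* and *Ms4a7* were all found in 46.0% of Fcmr+/+ and 46.9% of Fcmr-/- cells, and none of these 4 in 1.35% and 1.02%. Exactly 5 members were found in 13.9% of Fcmr+/+ and 23.0% of Fcmr-/- cells, and 6 in 1.69% and 2.91%.

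To place the members among phagocyte states, all cells were clustered together after genes with symbols starting with Ms4a had been taken out of the variable genes, which gave 11 clusters numbered by size. They are named here by number and leading genes. Cluster 9 (*Rsad2*, *Ifit1bl1*, *Cmpk2*) had 8 of 10 markers of interferon-high macrophages at least 2-fold above the other cells, and also 5 of 9 monocyte and 5 of 10 hypoxia markers. Cluster 1 (*Ccl17*, *Il1r2*, *Ifitm1*) had 7 of 9 monocyte and 6 of 6 MHC class II markers above the same limit. It also had 3 of 10 markers of macrophages with *Mrc1*, *Cd163* and *Folr2*, 2 of 9 of dendritic cells and 1 of T and NK cells. Cluster 6 (*Cenpf*, *Nusap1*, *Prc1*) had 10 of 10 markers of dividing cells. Cluster 5 (*Hbb-bs*, *Hba-a1*, *Adm*) had 7 of 10 markers of hypoxic macrophages and 4 of 6 of melanoma. The others were cluster 2 (*Tfrc*, *Cnrip1*, *Gas6*), cluster 3 (*Ly6c2*, *Ly6a*, *Slamf8*), cluster 4 (*Cxcl3*, *Ppbp*, *Ccl24*), cluster 7 (*Acp5*, *Cyp4f18*, *Apoe*), cluster 8 (*Iigp1*, *Serpina3g*, *Cxcl9*), cluster 10 (*Mfge8*, *Plpp3*, *Npy*) and cluster 11 (*Adm*, *Pdgfa*, *Rassf8*). Above the same limit, cluster 3 had 4 of 10 and cluster 8 had 3 of 10 markers of interferon-high macrophages. Cluster 3 had 1 of 9 and cluster 4 had 3 of 9 monocyte markers, with summed levels of 1444 and 1694 CPM for the 9. Clusters 3 and 8 held 74 and 45 Fcmr+/+ cells, so Fcmr+/+ values there rest on few cells.

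*Ms4a4c* ranged most widely over these states. With both libraries together it had 659 CPM in cluster 9, 247 in cluster 3, 187 in cluster 1 and 109.6 in cluster 8, and at the other end 20.5 in cluster 10, 13.3 in cluster 2 and 10.9 in cluster 11. The highest level was 60.4-fold the lowest. Cluster 9 held 6.22% of the cells and 23.9% of the *Ms4a4c* UMIs. *Ms4a4b*, which had few UMIs, was also highest in cluster 9 (24.6 CPM) and lowest in cluster 11 (0.452 CPM).

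*Ms4a6b* and *Ms4a6c* had their highest and lowest levels in the same clusters. They were highest in cluster 9, with 320.04 and 781 CPM, and lowest in cluster 10, with 58.4 and 218 CPM, so their levels spanned 5.48-fold and 3.59-fold. Within the Fcmr+/+ library alone, both were lowest in cluster 5. There *Ms4a6c* was highest in cluster 3 (761 CPM, 74 cells) and *Ms4a6b* in cluster 8 (305 CPM, 45 cells). *Ms4a6d* was the most even member, from 704 CPM in cluster 9 to 374 in cluster 5, a span of 1.88-fold. *Ms4a4a* had 9.88 CPM in cluster 7 and 2.26 in cluster 11.

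*Ms4a7* had another order. It was highest in cluster 7 (961 CPM), cluster 8 (874 CPM) and cluster 2 (818 CPM), and lowest in cluster 5 (292 CPM) and cluster 1 (374 CPM). Cluster 1, with the most monocyte markers, was thus the third highest for *Ms4a4c* and the second lowest for *Ms4a7*. Cluster 2 was the second lowest for *Ms4a4c* and the third highest for *Ms4a7*. The median log2 span between the highest and the lowest cluster was 1.84 over the 7 members and 0.80 over 5255 genes with at least 20 CPM, a count that *Ms4a4a* and *Ms4a4b* do not reach.

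**Figure D2:**
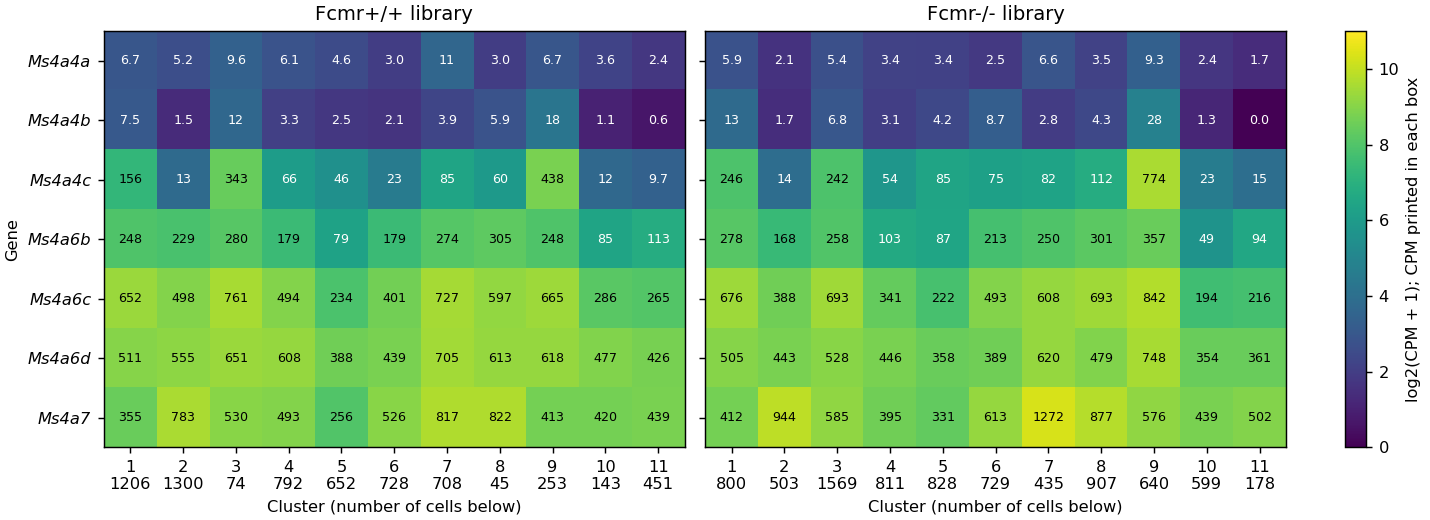
Level of each Ms4a gene (rows) in each of 11 clusters (columns, with the number of cells below) for the Fcmr+/+ library (left) and the Fcmr-/- library (right). Color is log2(CPM + 1) and the printed values are CPM. The *Ms4a4c* row peaks in cluster 9 in both libraries, the *Ms4a7* row peaks in cluster 7 of the Fcmr-/- library, and the *Ms4a6d* row is the most even.

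Within clusters, the difference in *Ms4a4c* between the libraries took both directions. In cluster 9 the 253 Fcmr+/+ cells had 438 CPM (interval 417 to 460.3) and the 640 Fcmr-/- cells 774 CPM (interval 753 to 795), 1.77-fold higher (interval 1.67 to 1.87). In the dividing cells of cluster 6 the levels stood at 23.2 CPM (interval 21.2 to 25.3) against 74.6 CPM (interval 70.8 to 78.7), 3.22-fold higher in Fcmr-/- cells (interval 2.91 to 3.57). In cluster 1 it was 1.57-fold higher in Fcmr-/- cells, with 156 and 246 CPM. *Ms4a4b* was 4.14-fold higher in Fcmr-/- cells of cluster 6 (interval 2.96 to 5.87), with 2.11 and 8.71 CPM, in a cluster where 2 of 10 T and NK markers were also at least 2-fold above the other cells.

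In cluster 3 the order was the other way round, since the 74 Fcmr+/+ cells had 343 CPM (interval 314 to 375) and the 1569 Fcmr-/- cells 242 CPM (interval 236 to 248), a log2 ratio of -0.50. In cluster 4 the levels were 66.2 and 54.1 CPM, and in cluster 7 they were 85.2 and 81.9 CPM, where the interval of the ratio included 1. The Fcmr-/- level was higher in 8 of 11 clusters. When both libraries were given the same mix of clusters, the levels were 116 and 150.2 CPM, and the log2 ratio of *Ms4a4c* was 0.37 in place of 1.19. In that mix cluster 3 counted with its 11.4% of all cells. The Fcmr+/+ level of 116 CPM, and so the ratio, thus leans in part on the 74 Fcmr+/+ cells of cluster 3.

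*Ms4a7* was higher in Fcmr-/- cells in 10 of 11 clusters, with log2 ratios up to 0.64 in cluster 7, where it had 817 CPM in Fcmr+/+ and 1272 in Fcmr-/- cells. The exception was cluster 4, with 493 and 395 CPM, and in clusters 8 and 10 the interval of the ratio included 1. The log2 ratio of *Ms4a7* at an equal mix of clusters was 0.23. *Ms4a6d* was higher in Fcmr+/+ cells in 10 of 11 clusters, cluster 9 being the exception (618 and 748 CPM). In cluster 1 the interval of its ratio included 1. *Ms4a6b* was 1.44-fold higher in Fcmr-/- cells in cluster 9 (interval 1.33 to 1.56) and 1.75-fold higher in Fcmr+/+ cells in cluster 4, with 179 and 103 CPM. *Ms4a6c* ranged from a log2 ratio of -0.56 in cluster 10 to 0.34 in cluster 9.

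**Figure D3:**
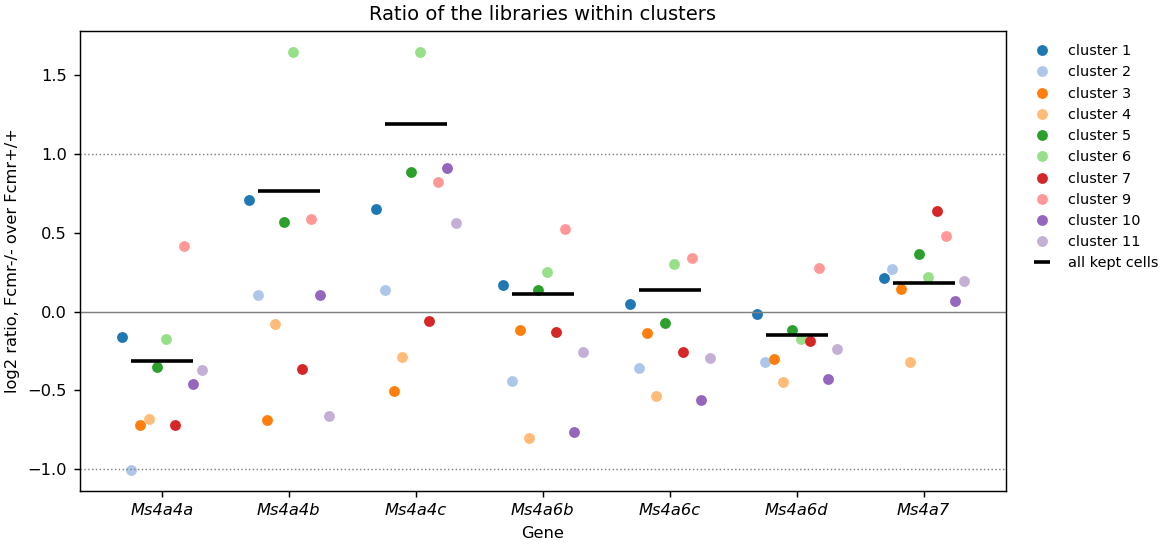
Log2 ratio of Fcmr-/- to Fcmr+/+ CPM for each Ms4a gene within each cluster that has at least 50 cells in both libraries (colored points) and over all kept cells (black bars). Dotted lines mark 2-fold. For *Ms4a4c* the points run from -0.50 to 1.65, and only that of cluster 6 lies above the overall value of 1.19. For *Ms4a7* all points but that of cluster 4 lie above 0.

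Most interferon-response genes listed were also higher in the Fcmr-/- library. The lists were chosen with earlier results of these data known, so their counts are a description and no independent support. Over all 8701 genes, 0.793% were at least 2-fold higher. The share of all genes with any higher level was not counted, and their median log2 ratio was 0.00. Of 28 genes of a type I interferon list, 27 had a higher level in Fcmr-/- cells and 5 were at least 2-fold higher, with a median log2 ratio of 0.64 and summed levels of 1745 and 2835 CPM. Its most abundant genes were *Bst2*, an antiviral membrane protein (327 and 464 CPM), and *Cxcl10*, a chemokine (152 and 275 CPM). Of 22 genes of a type II interferon list, 20 had at least 5 CPM in either library and 15 of these were at least 2-fold higher, with a median log2 ratio of 1.47. *Psmb8*, an immunoproteasome subunit, had 237 and 418 CPM there, and *AW112010* 49.4 and 292 CPM.

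To compare cells of like interferon response, thinned cells were put into 4 groups by their UMIs of the type I list, which holds no Ms4a gene. From the lowest to the highest group, *Ms4a4c* had 26.2, 45.1, 110.1 and 351 CPM in Fcmr+/+ cells. In Fcmr-/- cells it had 26.9, 52.2, 119 and 445 CPM. The level thus rose over the groups in both libraries, and within a group the log2 ratios of the libraries were 0.03, 0.21, 0.11 and 0.34. The highest group held 963 Fcmr+/+ and 2343 Fcmr-/- cells, with a mean of 48.6 and 43.2 UMIs of the list, so cells within it were not matched exactly. With these groups weighted alike in both libraries, which was added with the data already seen, *Ms4a4c* had 127 and 154 CPM, a log2 ratio of 0.27.

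The type II list gave another picture at its top. In the group of cells with the most UMIs of that list, *Ms4a4c* had 453 CPM in 462 Fcmr+/+ cells and 327 in 2889 Fcmr-/- cells, a log2 ratio of -0.47, while in the group below it had 134 and 171 CPM. In the top group the Fcmr+/+ cells had a mean of 15.6 UMIs of the list and the Fcmr-/- cells 21.7, so they were not matched.

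*Ms4a6b* and *Ms4a6c* also rose over the groups of the type I list, and more steeply in Fcmr-/- cells. *Ms4a6b* went from 174 CPM in the lowest group to 282 in the highest in Fcmr+/+ cells, and from 114 to 348 in Fcmr-/- cells. *Ms4a6c* went from 435 to 675 CPM in Fcmr+/+ cells and from 309.5 to 806 in Fcmr-/- cells. In the lowest group the log2 ratios were -0.60 and -0.49, and in the highest 0.30 and 0.26. In the groups between, they were -0.50 and -0.15 for *Ms4a6b* and -0.33 and -0.10 for *Ms4a6c*. With the groups weighted alike in both libraries, the log2 ratios of these genes were -0.15 and -0.11. The difference between the libraries in the slope over these groups was not tested. *Ms4a7* did not follow the list, with 547, 593, 575 and 453 CPM in Fcmr+/+ cells and 597, 622, 672 and 652 in Fcmr-/- cells.

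Over groups formed by the UMIs of 9 monocyte markers, *Ms4a4c* and *Ms4a7* ran in opposite directions in both libraries. *Ms4a4c* went from 20.6 to 247 CPM in Fcmr+/+ cells and from 56.0 to 403 in Fcmr-/- cells. *Ms4a7* went from 732 to 301 CPM in Fcmr+/+ cells and from 903 to 406 in Fcmr-/- cells. Both *Ms4a4c* and *Ms4a7* were higher in Fcmr-/- cells in all 4 monocyte groups. In kept cells, *Fn1* alone gave 70069 of the 132745 Fcmr+/+ UMIs of these markers and 61333 of the 150153 Fcmr-/- UMIs. It thus weighs heavily in the groups. *Ms4a6b* had 208 and 259 CPM in the lowest and the highest group of Fcmr+/+ cells, and 198 and 283 in those of Fcmr-/- cells.

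**Figure D4:**
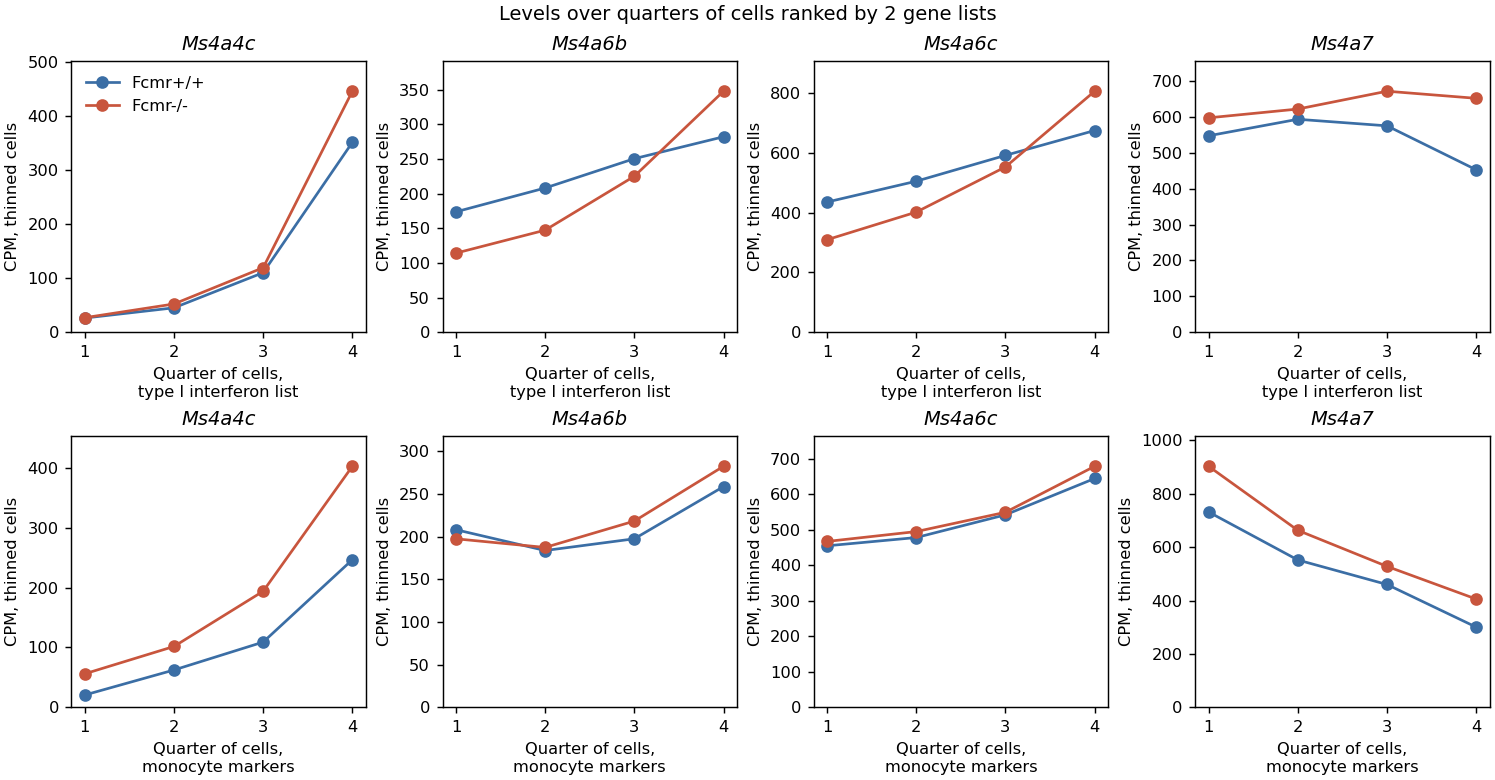
Level in CPM on thinned cells of *Ms4a4c*, *Ms4a6b*, *Ms4a6c* and *Ms4a7* over 4 groups of cells, from the fewest to the most UMIs of the type I interferon list (top row) or of the monocyte markers (bottom row), for Fcmr+/+ (blue) and Fcmr-/- cells (red). Each point is the sum over the cells of 1 library. The *Ms4a4c* lines rise in both rows, the *Ms4a6b* and *Ms4a6c* lines cross in the top row, and the *Ms4a7* lines fall in the bottom row.

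Across thinned cells of both libraries, the pair with the highest Spearman correlation was *Ms4a6b* and *Ms4a6c* (0.46, over 6280 Fcmr+/+ and 7354 Fcmr-/- cells), followed by *Ms4a4c* and *Ms4a6c* (0.37) and by *Ms4a6c* and *Ms4a6d* (0.33). It was 0.41 for *Ms4a6b* and *Ms4a6c* among Fcmr+/+ cells and 0.49 among Fcmr-/- cells, and its median within clusters was 0.31. In Fcmr+/+ cells, 56.4% held UMIs of both genes, where the product of their shares was 52.3%. For *Ms4a4c* and *Ms4a7* the correlation was -0.01, and for pairs with *Ms4a4a* it was at most 0.08. The median over all 21 pairs was 0.10, and correlations this weak in sparse counts carry no weight.

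Over 21 sums of cells, 1 for each cluster and library with at least 50 cells, the members formed closer groups. Pearson correlations of log2(CPM + 1) were 0.97 for *Ms4a6b* and *Ms4a6c* and 0.94 for *Ms4a4b* and *Ms4a4c*, the pairs whose promoters are printed above. They were 0.89 for *Ms4a4a* and *Ms4a6d*, and -0.05 for *Ms4a4c* and *Ms4a7*. These sums share libraries and clusters and are given as a description. The last 500 bases of *Ms4a6c* transcripts share 13.7% of their stretches of 50 bases with other genes, *Ms4a6b* among them, and those of *Ms4a4c* share 11.1% with *Ms4a4b* and *Ms4a4d*. For *Ms4a6b* the share is 1.22% and for the other members it is 0%. What these shared stretches do to the counts was not tested.

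**Figure D5:**
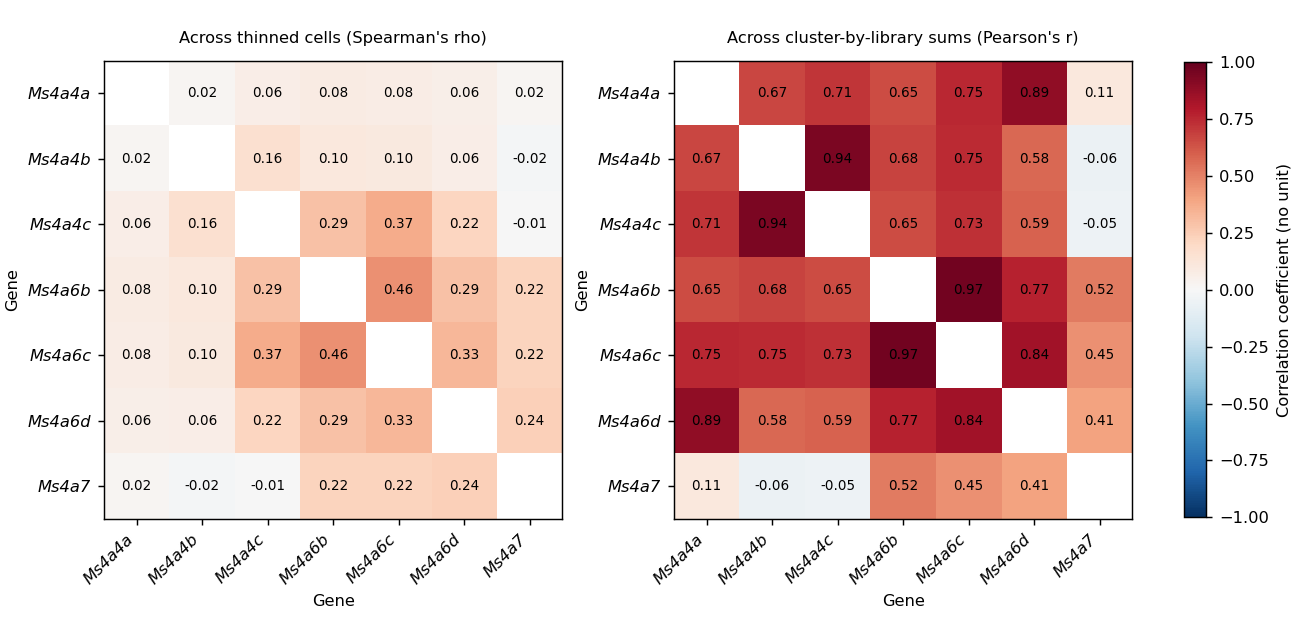
Correlation between each pair of Ms4a genes, as Spearman's rho across 6280 Fcmr+/+ and 7354 Fcmr-/- thinned cells (left) and as Pearson's r across 21 sums of cells by cluster and library (right). Color and printed values give the coefficient. The *Ms4a6b* and *Ms4a6c* pair is the highest in both panels, with 0.46 and 0.97, and *Ms4a7* stands apart from *Ms4a4b* and *Ms4a4c*.

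By the same sums, some members were closest to another member, with 0.97 for *Ms4a6b* and *Ms4a6c* and 0.89 for *Ms4a4a* and *Ms4a6d*. With all Ms4a genes left out, the genes most like each member were named from those with at least 20 CPM. For *Ms4a4c* they were *Slfn1* (r = 0.98), *Irf7* (0.96), a transcription factor of the type I interferon response, and *Ly6c2* (0.96), which encodes the Ly-6C antigen of classical monocytes. In Fcmr+/+ and Fcmr-/- cells these had 18.9 and 42.3, 69.7 and 139.5, and 31.1 and 108 CPM. For *Ms4a4b* they were *Slfn8* (0.94), *Pyhin1* (0.93) and *Xaf1* (0.93), for *Ms4a6b* *Axl*, a receptor for *Gas6* (0.93), *Lbh* (0.92) and *Fcer1g*, the common Fc receptor gamma chain (0.90), and for *Ms4a6c* *Epsti1* (0.92), *Clec4a1* (0.90) and *Lbh* (0.89). For *Ms4a6d* they were *Tmem219* (0.83), *Irf5* (0.82) and *Inpp5k* (0.80), for *Ms4a7* *Ptms* (0.89), *Tmem86a* (0.88) and *Entpd1*, which encodes the ectonucleotidase CD39 (0.87), and for *Ms4a4a* *Stk17b* (0.84) and *Tmem219* (0.84).

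The other genes of the family were mostly silent in this sort. Of the 12 remaining Ms4a genes, *Ms4a8a* had 14.6 CPM in Fcmr+/+ and 17.2 in Fcmr-/- cells, and *Ms4a14* had 12.1 and 9.38. *Ms4a1* had 14 and 12 UMIs and *Ms4a5* had 5 and 4 UMIs. The remaining 8, *Ms4a4d* of the same region among them, had 3 UMIs or fewer in each library, and 5 of them had none in either, which allows up to 3 UMIs, or 0.0234 CPM in the Fcmr+/+ and 0.0241 CPM in the Fcmr-/- library. The related genes *Tmem176a* and *Tmem176b*, which encode similar membrane proteins and neighbour each other, had 25.6 and 23.7 CPM and 40.3 and 38.1 CPM.

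Genes for receptors and adaptors that MS4A proteins are known to accompany differed by less than *Ms4a4c*. *Trem2*, a lipid-sensing receptor, had 732 CPM in Fcmr+/+ and 581 in Fcmr-/- cells, a log2 ratio of -0.33. Its adaptor *Tyrobp* had 1617 and 1721 CPM, *Fcer1g* 2667 and 2831, and the kinase *Syk* 117 and 112. *Vsig4*, a complement receptor of resident macrophages, had only 192 and 158 UMIs. *Clec7a* was not analysed here.

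The summed level of T and NK cell transcripts was higher in the Fcmr-/- library, as was that of *Ms4a4b*, and a link between them was not tested. Of 12 genes of a T and NK list, 10 were found, with summed levels of 2.69 CPM in Fcmr+/+ and 19.5 in Fcmr-/- cells, 1 gene at 0 in the Fcmr+/+ library and none in the other. The highest were *Gzmb* (0.0779 and 4.97 CPM) and *Klrd1* (1.59 and 3.07 CPM). The 619 *Gzmb* UMIs of the Fcmr-/- library came from 36 cells, and 1 cell held 245 of them. At least 5 UMIs of the list were found in 17 Fcmr+/+ and 56 Fcmr-/- cells. Those 56 cells held 205 of the 864 *Ms4a4b* UMIs, 191 CPM (interval 166 to 219), and the 17 cells held 18 of 470. Cells with no UMI of the list held 640 of the 864 and 443 of the 470. Without any cell with a UMI of the list, *Ms4a4b* had 3.51 and 5.31 CPM, a log2 ratio of 0.49 in place of 0.77. *Ms4a4c* then had 68.8 and 158 CPM. In the 17 Fcmr+/+ and 56 Fcmr-/- cells with at least 5 UMIs of the list, *Ms4a4c* had 124 and 316 CPM.

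Markers of other cells also differed between the libraries, and their part in these results was not tested. Summed levels in Fcmr+/+ and Fcmr-/- cells were 9931 and 9768 CPM for 9 macrophage markers (led by *C1qb* and *C1qa*), 1034 and 1205 for 9 monocyte markers (*Fn1* and *Plac8*), and 6280 and 4650 for 10 markers of macrophages with *Mrc1*, *Cd163* and *Folr2* (*Pf4* and *Mrc1*). They were 8.64 and 14.3 CPM for 9 dendritic cell markers, 12.5 and 10.5 for 6 B cell genes, almost all from *Cd79b*, and 0 and 0.0321 for 5 genes of mast cells and basophils. Neutrophil genes had 40.2 and 97.6 CPM, mainly *Mmp8*, melanoma genes 40.6 and 64.1, led by *Pmel* and *Dct*, and stromal genes 4.19 and 5.51. The 8 genes of the MHC class II list, led by *Cd74* and *H2-Aa*, had 4925 and 7132 CPM with a median log2 ratio of 0.53. Of 8 monocyte markers with at least 5 CPM in either library, 6 were higher in Fcmr-/- cells and 1 was at least 2-fold higher. Their median log2 ratio was 0.31. Over all 8701 genes the median was 0.00 and 0.793% were at least 2-fold higher, while the share with any higher level was not counted. *Fn1* itself was lower in the Fcmr-/- library, with 546 CPM in Fcmr+/+ and 492 in Fcmr-/- cells.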

How the data were processed

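Single-cell RNA was read from 1 library of MerTk+ CD64+ TMPs from B16 tumors of Fcmr+/+ mice and 1 of Fcmr-/- mice. The authors made UMI counts per gene and cell with Cell Ranger on GRCm38 and deposited them as raw counts, without scaling, in 10x matrices. Cells with 200 to 7000 genes and at most 30% mitochondrial UMIs were kept, as in the study. UMIs were summed per library and per cluster and scaled to CPM. With 1 library per genotype no test was run, and intervals are exact at 95% and cover counting error only. Clusters were made with Seurat 5.3.0 in R 4.3.3 (10 principal components, resolution 0.8) from 1336 variable genes less the 6 of them that are Ms4a genes. To compare shares of cells and correlations, UMIs were thinned to 6403 per cell. Scrublet in scanpy 1.11.5 called 0 doublets, so the call did not work, and leaving out the 5% highest scores of each library was an alternative. Sums were made in Python 3.11.15 and tested on simulated data. Named genes were all Ms4a genes, Tmem176a, Tmem176b, the known partner genes and, with Ms4a genes left out, the 3 genes most like each member. The 3 leading genes of each cluster and the 2 most abundant of each list were named too. A gene that this rule names is not reported here. The members and lists were chosen with earlier results of these data known.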

Additional observations from a re-analysis of the deposited data

Results flagged for a closer look

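Ratios of the Fcmr-/- to the Fcmr+/+ library lay on both sides of 1, with counting intervals that left out 1 in each direction, for 5 members among clusters with at least 50 cells in each library. The values below are the highest and lowest log2 ratios of those clusters. For Ms4a4a and Ms4a4b the ratios also took both directions, but such intervals lay on a single side. How many of all genes have such intervals on both sides was not counted, so this is not shown to be particular to the members. With 1 library per genotype, the differences between clusters were not tested. For Ms4a4c the log2 ratio was 1.65 in cluster 6, the dividing cells, and -0.50 in cluster 3. The Fcmr+/+ value of cluster 3 rests on 74 cells. Cluster 6 also had 2 of 10 T and NK markers at least 2-fold above the other cells, whose part was not tested. For Ms4a6b the log2 ratio was 0.52 in cluster 9 and -0.80 in cluster 4. Ms4a6c had 0.34 in cluster 9 and -0.56 in cluster 10, and Ms4a6d had 0.28 in cluster 9 and -0.45 in cluster 4. For Ms4a7 it was 0.64 in cluster 7 and -0.32 in cluster 4. Cluster 9, led by interferon-response genes, held the highest ratio of the 3 Ms4a6 genes, and cluster 4 the lowest of Ms4a6b, Ms4a6d and Ms4a7.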

How the results depend on the processing

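Among the 43 alternatives of the summary values, 27 left them within their counting error (counts of members within 1.5 times) and 16 moved them. The cause was not tested. The median log2 ratio of the 7 members was 0.14, and it was 0.0867 as a mean over cells of each cell's own CPM, 0.0925 with at most 5000 genes per cell, 0.10 without the dividing cluster, 0.0786 on thinned cells and -0.0569 at an equal mix of clusters. The count of members at least 2-fold higher was 1, and it was 0 at an equal mix of clusters and on thinned cells, and 2 at a limit of 1.5-fold. Thinning left out 72 Fcmr+/+ and 645 Fcmr-/- cells. The equal mix gives clusters 3 and 8 their share of all cells, although they held only 74 and 45 Fcmr+/+ cells. With cells weighted alike over the groups of type I interferon UMIs, an alternative chosen after seeing the data, the median was -0.11 and the count 0. *Ms4a6b* and *Ms4a6c* changed sign at an equal mix of clusters (-0.06 and -0.07) and over the interferon groups (-0.15 and -0.11). The median log2 span over clusters was 1.84, and it was 2.59 at resolution 1.2, 1.99 with genes scaled within each library and 2.11 in Fcmr-/- cells. The median Spearman correlation was 0.10, and it was 0.16 on cells as deposited, 0.13 in Fcmr-/- cells and 0.0660 within clusters. Of the alternatives for single members, 77 stayed within it and 42 moved. No paired analysis was possible because each genotype has 1 library. Depth limits *Ms4a4a* and *Ms4a4b*, which had 470 to 864 UMIs per library.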

Other observations

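Groups of thinned cells formed by other marker lists gave further levels of *Ms4a4c* and *Ms4a7*. From the group with the fewest UMIs of the MHC class II list to that with the most, *Ms4a4c* went from 29.9 to 243 CPM in Fcmr+/+ cells and from 72.2 to 340.1 in Fcmr-/- cells. *Ms4a7* went from 673 to 316 CPM in Fcmr+/+ cells and from 685 to 569 in Fcmr-/- cells, so that the libraries were 0.03 apart on the log2 scale at the bottom and 0.85 at the top. Over groups formed by the dividing-cell markers, the top group had 23.4 CPM of *Ms4a4c* in Fcmr+/+ cells and 82.4 in Fcmr-/- cells.

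Over groups formed by markers of hypoxic macrophages, *Ms4a6b* went from 300.3 to 125 CPM in Fcmr+/+ cells and from 305 to 156 in Fcmr-/- cells. *Ms4a7* went from 728 to 329 CPM and from 877 to 412 CPM. *Ms4a6d* differed less over these groups, with 537 and 492 CPM in Fcmr+/+ cells and 489 and 495 in Fcmr-/- cells. Over groups formed by the list of *Mrc1*, *Cd163* and *Folr2*, *Ms4a6d* went from 443 to 663 CPM in Fcmr+/+ cells and from 499 to 582 in Fcmr-/- cells. These are sums over the cells of 1 library each, and none of the differences was tested.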
